A study of Tupaia belangeri with 2 samples.

Results

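Voltage-gated sodium and calcium channel subunits, potassium channel subunits and HCN channels were followed in single cells of the embryonic tree shrew brain. Members were taken by name: every annotated name that begins with KCN and a further letter, CACN or CAC1, and the names of the sodium channel alpha (SCN followed by a number and A), sodium channel beta (SCN followed by a number and B) and HCN genes, with at least 20 unique molecular identifiers (UMIs, each marking 1 captured transcript) over both libraries. Of 117 names that matched, 76 reached that sum and are described here, out of 18543 names in the annotation. Another 28 matched names had 1 to 19 UMIs and 13 had none. KCND1 and KCNJ16, with 24 UMIs each, lay just inside the limit, and KCNH4 and SCN4B, with 19 UMIs each, just outside it. CAC1A, CAC1B, CAC1C, CAC1G and CAC1H are the annotation's names for the pore-forming subunits usually written CACNA1A, CACNA1B, CACNA1C, CACNA1G and CACNA1H.

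These genes encode the proteins that set the electrical behaviour of a cell. A sodium or calcium channel is built around 1 large alpha subunit that forms the pore, and auxiliary beta, alpha2delta and, for calcium channels, gamma-type subunits change its traffic to the membrane and its gating. Potassium channels assemble from several smaller pore subunits. The voltage-gated ones (KCNA to KCND, KCNH, KCNQ) repolarize the cell after a spike, the calcium-activated ones (KCNMA, KCNN) respond to calcium entry, the inward rectifiers (KCNJ) and the tandem-pore leak channels (KCNK) hold the resting potential, and HCN channels carry a cation current that opens on hyperpolarization. In the developing brain, sodium and calcium channels are best known from neurons, whereas leak and inward-rectifying potassium channels are also known from progenitors, glia and vessels.

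The cells came from the whole brains of 2 tree shrew (Tupaia belangeri) embryos at 4 to 5 postconceptional weeks, whose labels give no genotype or treatment, with 1 droplet library per embryo that reads transcripts near their 3′ ends. The dura mater and the blood vessels had been removed before dissociation and debris had been cleared on a density gradient, so the shares of vascular and meningeal cells below are not those of the intact brain. The 17735 cells with at least 200 genes detected (8408 of embryo 1 and 9327 of embryo 2) were clustered without any of the channel names, and clusters were named from listed marker genes. The single condition leaves no contrast between groups of animals, and every comparison is between cell classes within the same 2 animals, so that n = 2 embryos throughout.

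Levels are given as CPM, the UMIs of a gene per 1000000 UMIs of a class in 1 embryo, for embryo 1 and then embryo 2. The classes were radial glia-like cells (1980), dividing cells (2795), neurogenic precursor-like cells (250), cortical excitatory neuron-like cells (791), midbrain or thalamus excitatory neuron-like cells (1687), granule or ZIC neuron-like cells (1119), forebrain inhibitory neuron-like cells (2390), midbrain inhibitory neuron-like cells (3047), microglia-like cells (160), endothelial-like cells (87), meningeal fibroblast-like cells (114), choroid plexus-like cells (163) and erythroid-like cells (1415). A further 1737 cells in 4 clusters stayed unnamed, and no cluster took the name of astroglia, oligodendrocyte precursors or mural cells. The granule or ZIC class is the least secure. It is a single cluster that held 3 of the listed markers (ZIC1, CBLN1 and RELN), none of them among its 10 leading genes, which include BRNP1, GRM5, CAMK2B, GABBR2 and CHL1, and in new clusterings 84.2% of its cells kept the name with 30 principal components, 1.88% with cells of at least 500 genes, 0.0894% with at least 1000 genes and 0% at a resolution of 0.5 or 1.0 or without the cells of highest doublet score (Scrublet). It also carried the midbrain or thalamus excitatory markers at a summed 825 and 734 CPM (1696 and 1627 CPM in that class itself). The forebrain inhibitory markers stood in it at 608 and 956 CPM (1318 and 1364 CPM in their own class) and the midbrain inhibitory markers at 388 and 403 CPM (2140 and 2324 CPM). The granule or ZIC list itself stood at 513 and 464 CPM, and at 331 and 404 CPM in the midbrain inhibitory class. Median depth was 3539 and 3169 UMIs per cell, haemoglobin made up 28.7% and 13.6% of the UMIs of the libraries, and 18 cell barcodes occurred in both.

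The 76 subunits summed to 14525 UMIs in embryo 1 and 18950 in embryo 2, and 49 of them had under 200 UMIs while 9 had over 1000. Their summed level was 229 and 232 CPM in radial glia-like cells and 248 and 246 CPM in dividing cells. It was 1246 and 1311 CPM in granule or ZIC neuron-like cells, and between 636 and 999 CPM in the other 4 neuron classes, so that progenitors and neurons did not overlap. Per 1000 cells, erythroid-like cells, which are not excitable, carried 357 and 388 member UMIs, against 1003 and 1091 in radial glia-like cells. The choroid plexus-like class carried 471 and 632 and the microglia-like class 385 and 1063. In CPM, erythroid-like cells stood at 38.0 and 41.5, choroid plexus-like cells at 177 and 206 and microglia-like cells at 152 and 235. Haemoglobin made up 84.6% and 83.3% of the UMIs of the erythroid-like class, which lowers the CPM of every other gene there. The scaling factors of the tests were 0.121 and 0.133 in that class and 1.07 to 1.16 in radial glia-like and dividing cells. The erythroid-like CPM are therefore not comparable with those of the other classes.

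**Figure D1:**
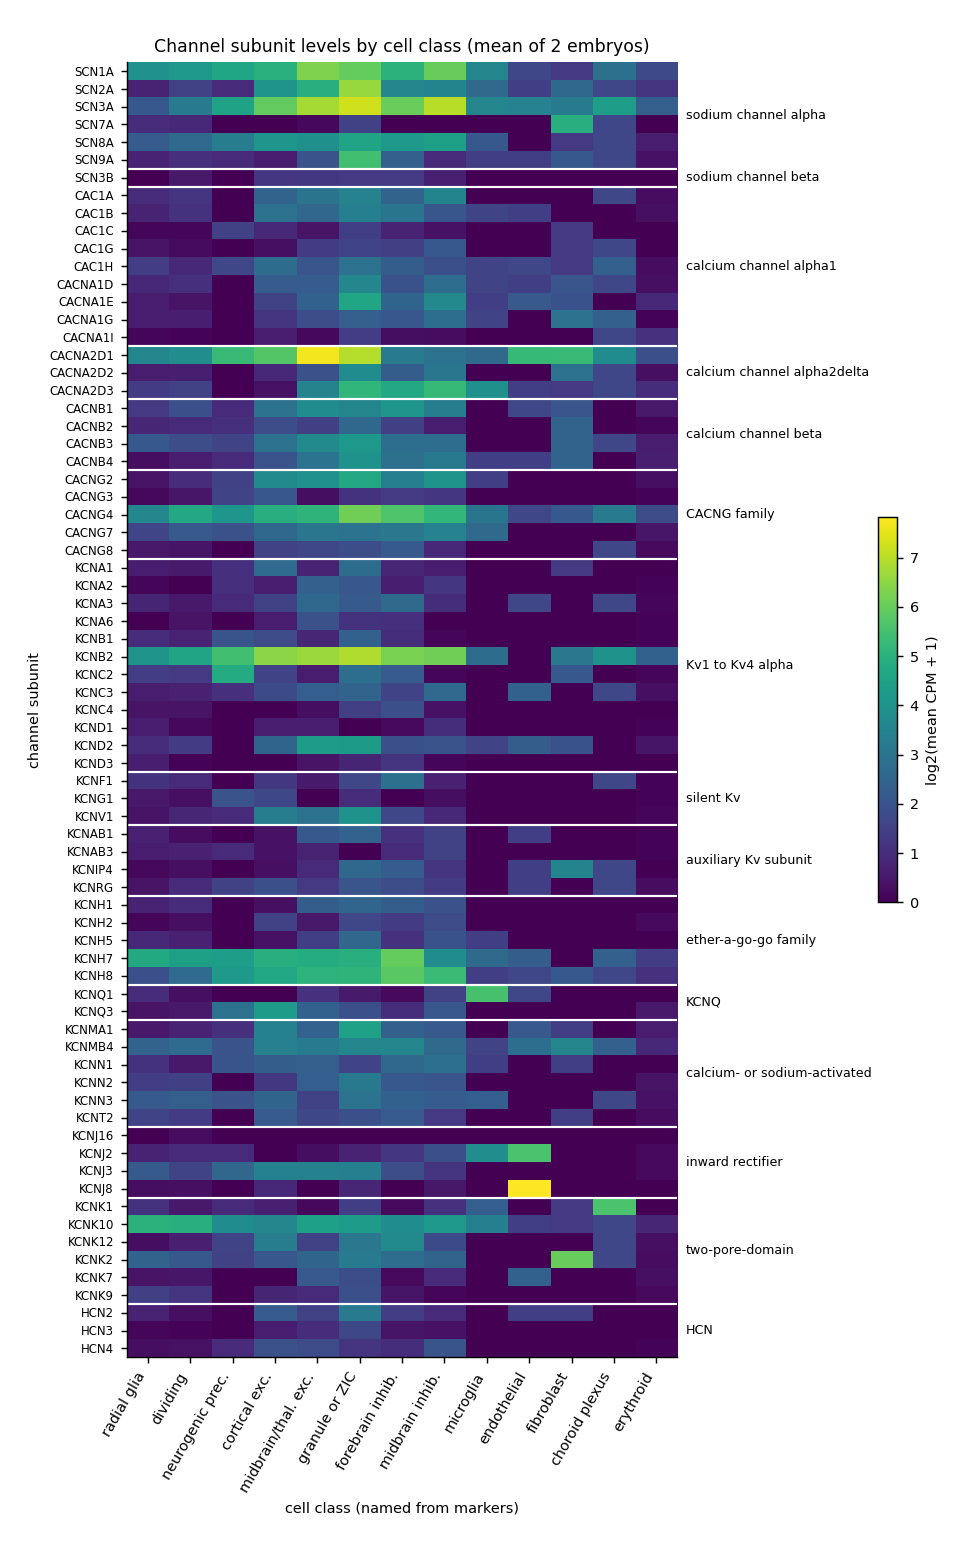
Levels of 73 of the 76 channel subunits (rows, grouped by family) in the 13 named cell classes (columns), as log2 of the mean CPM of both embryos plus 1. The neuron classes show high levels of SCN3A, SCN1A and KCNB2, and KCNJ8, KCNK2, KCNK1 and KCNQ1 each stand out in 1 non-neuronal class.

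To see which subunits separate neurons from the progenitors of the same brains, the mean of the 5 neuron classes was compared with the mean of the radial glia-like and dividing classes. Of the 51 subunits that passed the filter on low counts, 38 were higher in neurons and 2 were lower (edgeR quasi-likelihood test with the embryo as a block, Benjamini-Hochberg adjusted p under 0.05 over 9906 names), where 34.8% of all names tested were called higher and 32.8% lower, 67.6% in all. The median log2 fold change was 1.75 over these subunits and 0.024 over all names tested. The other 25 subunits did not pass the filter, which depends on the levels in single libraries and not only on the total. KCNT2, with 130 UMIs, did not pass, whereas SCN7A, with 62, did, through its level in the meningeal fibroblast-like class. Without the filter, 45 of the 76 were called higher and 4 lower, against 20.8% and 26.4% of 15150 names. By level alone, 66 of the 76 (86.8%) were higher in neurons in both embryos, 4 were lower in both and 6 were mixed, and of all 11961 names with at least 20 UMIs 56.1% were higher in both. In a new clustering of the cells with 500 or with 1000 genes or more, the calls fell in number from 40 to 26 and 24. Of these, 23 and 22 were higher in neurons and 3 and 2 were lower. Over all names, 2718 of 9117 and 2089 of 9297 were then higher, and 2948 and 3071 lower.

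**Figure D2:**
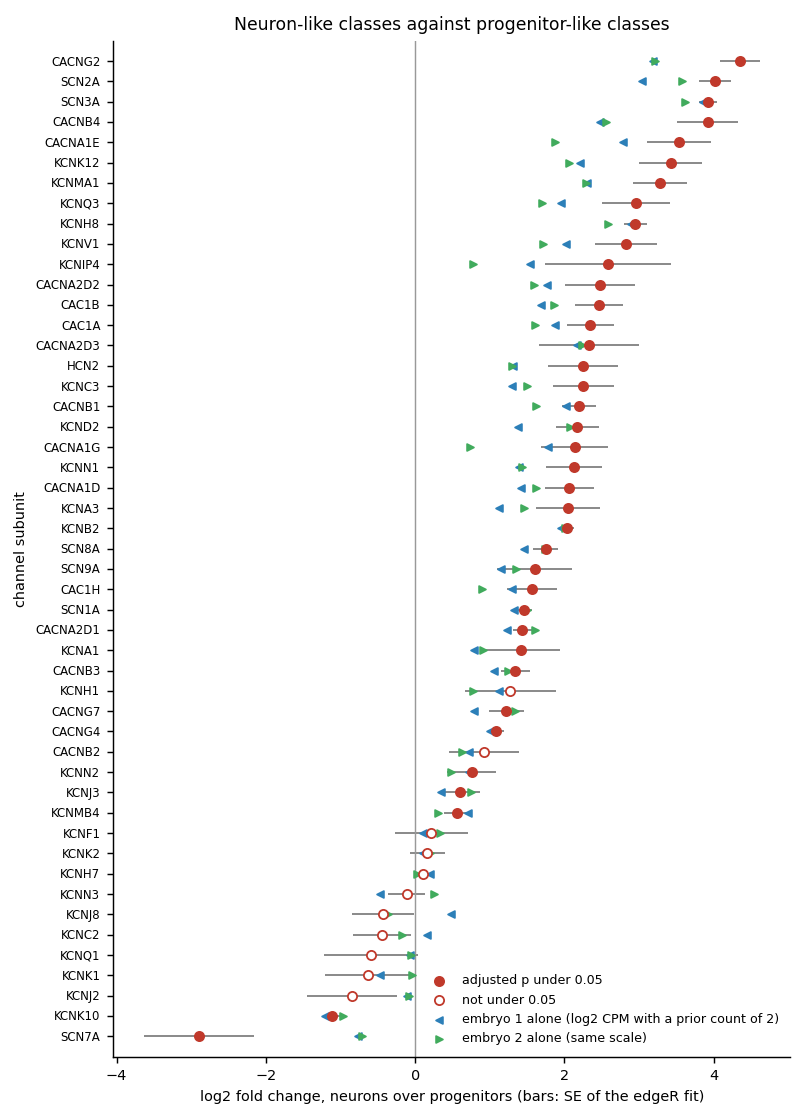
Log2 fold change of 49 of the 51 tested subunits between the mean of 5 neuron classes and the mean of the radial glia-like and dividing classes, with the standard error of the edgeR fit (bars) and the value of each embryo (triangles, with a prior count of 2, which draws genes with few counts towards 0). Filled points have an adjusted p under 0.05, with 36 of them right of 0 and 2, KCNK10 and SCN7A, left of it.

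Sodium channel alpha subunits carry the upstroke of the spike, and 5 of the 6 tested were higher in neurons. SCN3A, an isoform known from immature neurons, stood at 101 and 104 CPM in neurons and 5.57 and 6.53 CPM in progenitors, a log2 fold change of 3.92 ± 0.12 (SE, edgeR adjusted p = 4.6e-45). SCN2A stood at 30.5 and 34.7 CPM against 1.52 and 1.07 CPM (4.02 ± 0.22, edgeR adjusted p = 7.3e-29). In both genes the embryos lay close together and the cell groups far apart. SCN1A and SCN8A, isoforms of the mature brain, were counted in progenitors as well: SCN1A had 16.3 and 14.9 CPM there and 51.0 and 54.4 CPM in neurons (1.46 ± 0.10), and SCN8A 4.87 and 4.41 CPM and 17.6 and 19.0 CPM (1.75 ± 0.17). The alpha subunits together had 91 and 27 UMIs in the 1046 and 369 erythroid-like cells, which are not excitable. They had 118 and 116 UMIs in 1045 and 935 radial glia-like cells and 318 and 237 in 1558 and 1237 dividing cells. How far the progenitor counts of single subunits lie above that level was not tested. SCN9A was higher in neurons too (1.60 ± 0.50), with most of its counts in 1 neuron class that is described further on.

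SCN7A, an unusual member that does not open by voltage like its relatives, was lower in neurons, at 0.206 and 0.614 CPM against 0.797 and 1.06 CPM, from 9 against 22 UMIs. Its pooled ratio was 0.370 (exact 95% interval 0.15 to 0.836, counting error only), and the fitted value of -2.89 ± 0.74 rests on neuron classes with no UMI. The only sodium channel beta subunit with 20 UMIs or more was SCN3B, with 46 UMIs, 1.30 and 1.25 CPM in neurons and 0.180 and 0.282 CPM in progenitors.

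Among calcium channels, all 6 pore subunits tested were higher in neurons. They belong to the P/Q type (CAC1A, 2.35 ± 0.32), the N type (CAC1B, 2.46 ± 0.32), the L type (CACNA1D, 2.06 ± 0.33), the R type (CACNA1E, 3.54 ± 0.43) and the T type (CACNA1G, 2.14 ± 0.45, and CAC1H, 1.57 ± 0.33). CACNA1E had 10.3 and 8.20 CPM in neurons and 0.279 and 0.623 CPM in progenitors. CAC1C, the other brain L-type subunit, had 27 UMIs in all, and with CAC1G (72) and CACNA1I (40) it did not pass the filter. CAC1G and CACNA1G are names of the same subunit, and their models carry consecutive numbers in the annotation, so the counts of 1 gene may be split between them. They were kept apart here, and each is counted among the subunits.

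The auxiliary calcium channel subunits bring the pore to the membrane and tune its gating. All 3 alpha2delta subunits and 3 of the 4 beta subunits were higher in neurons. CACNA2D1 stood at 78.4 and 79.8 CPM against 13.7 and 10.6 CPM (1.44 ± 0.12), and CACNB4 at 6.60 and 9 CPM against 0.3 and 0.439 CPM (3.92 ± 0.41). CACNB2 was not called (0.93 ± 0.47, edgeR adjusted p = 0.074). The tested CACNG names encode proteins that accompany AMPA-type glutamate receptors, and all 3 were higher. CACNG2, or stargazin, had 12.3 and 18.7 CPM in neurons and 0.420 and 0.905 CPM in progenitors (4.35 ± 0.27, edgeR adjusted p = 6.5e-25), and CACNG4 was counted on both sides, at 45.8 and 40.3 CPM against 19.6 and 16.8 CPM (1.09 ± 0.11).

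Among voltage-gated potassium channels, 5 of 6 tested KCNA to KCND subunits were higher in neurons. KCNB2, a delayed rectifier, had 77.1 and 103 CPM in neurons and 16.4 and 21.9 CPM in progenitors (2.03 ± 0.10), nearly all from 1 of its 2 gene models. KCNQ3, a subunit of M-current channels, had 0.349 and 0.439 CPM in progenitors and 6.43 and 5.75 CPM in neurons (2.96 ± 0.46). Of the ether-a-go-go relatives, KCNH8 was higher, at 34.3 and 39.3 CPM against 3.17 and 5.28 CPM (2.95 ± 0.15), while KCNH7, with 30.0 and 34.7 CPM and 20.9 and 25.8 CPM, was not called (0.10 ± 0.10, edgeR adjusted p = 0.38).

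The calcium-activated channels, which couple calcium entry to repolarization, were higher in 4 of 5 cases. KCNMA1, the pore of the BK channel, had 9.69 and 7.66 CPM in neurons and 0.677 and 0.494 CPM in progenitors (3.28 ± 0.36), and KCNN3, an SK channel, was not called, at 3.96 and 4.77 CPM against 4.57 and 3.27 CPM. HCN2 was higher (2.25 ± 0.47), and so were KCNV1, a silent partner subunit (2.82 ± 0.42), and KCNIP4, an auxiliary subunit of KCND channels (2.59 ± 0.84).

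Of the tandem-pore leak channels, KCNK12 was higher in neurons (3.42 ± 0.42) and KCNK10, of the TREK group, lower. KCNK10 had 32.0 and 28.4 CPM in progenitors and 15.7 and 16.7 CPM in neurons (-1.12 ± 0.11, edgeR adjusted p = 1.4e-15). As whole classes, progenitors and neurons did not overlap. Radial glia-like cells had 32.1 and 31.3 CPM and dividing cells 31.8 and 25.5 CPM, and the 5 neuron classes spanned 10.7 to 22.6 CPM. Single radial glia-like and dividing clusters, given further on, did overlap the neuron classes. KCNK2, of the same group, was not called, at 5.63 and 5.18 CPM against 4.23 and 3.79 CPM (0.16 ± 0.23).

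Genes that work with these channels were read beside them, from lists chosen with earlier results of these data known. Of 14 tested genes of the axon initial segment and node scaffold, 12 were higher in neurons and 2 lower, where 34.8% of all names were higher and 32.8% lower. ANK3, the ankyrin that anchors sodium and KCNQ channels at the initial segment, was higher by 3.14 on the log2 scale, its partner NFASC by 2.45 and the spectrin SPTBN4 by 2.19, while CNTNAP2 (-0.86) and DLG1 (-1.52) were lower. Of 11 other partners 8 were higher and 1 lower, the last being REST, a repressor of neuronal genes (-1.35), and the KCND partners DPP10 (3.42) and DPP6 (1.70) were among the former. Of 10 pumps and chloride transporters 4 were higher, among them SLC12A5 (2.30), which exports chloride, and 4 were lower, among them SLC12A2, which imports chloride (-0.44). Of 13 calcium release and store-entry genes 5 were higher and 4 lower, and the counts of this list and of the pumps and transporters lie near the shares over all names.

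The neuron classes differed clearly in alpha2delta subunits. Excitatory classes (cortical, midbrain or thalamus, granule or ZIC) were compared with the forebrain and midbrain inhibitory classes, and 15 subunits were higher in the former and 3 lower, where 13.6% of all names were higher and 13.2% lower. The granule or ZIC class, counted here as excitatory, carried both excitatory and inhibitory markers as given above. In the clustering of cells with at least 500 genes, 73.1% of its cells took the midbrain or thalamus excitatory name and 18.1% the forebrain inhibitory name. The midbrain or thalamus class carried the midbrain inhibitory markers at a summed 1122 and 1000.5 CPM. The part of these markers in the result was not tested. In a comparison without the granule or ZIC class, added after the data had been seen, 10 were higher and 8 lower, against 11.4% and 11.8% of all names. CACNA2D1 had 53.0 and 51.1 CPM in cortical, 195 and 215 CPM in midbrain or thalamus and 129.6 and 117 CPM in granule or ZIC neuron-like cells. It had 7.90 and 8.99 CPM in forebrain and 6.37 and 6.83 CPM in midbrain inhibitory neuron-like cells, with no overlap (3.85 ± 0.14, edgeR adjusted p = 5.8e-39), and 12 and 9.99 CPM in radial glia-like cells.

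CACNA2D3, of the same family, was distributed otherwise. It had 35.3 and 39.1 CPM in midbrain inhibitory, 24.6 and 25.8 CPM in forebrain inhibitory, 32.0 and 37.2 CPM in granule or ZIC and 12.2 and 8.34 CPM in midbrain or thalamus excitatory neuron-like cells, but only 1 UMI in the 3624950 of the cortical class. Against the other neuron classes pooled, the cortical ratio was 0.0104 (exact 95% interval 0.000263 to 0.0581, counting error only). The excitatory classes pooled had 0.450 times the inhibitory level (0.378 to 0.533), and the fitted value of -2.65 ± 0.24 (edgeR adjusted p = 2.0e-15) draws on the nearly empty cortical class. KCNJ2 was also lower in excitatory classes, from 4 against 26 UMIs, and so was KCNH8 (-0.67 ± 0.12). Besides CACNA2D1, the silent subunit KCNV1 (2.75 ± 0.35), the G-protein-gated channel KCNJ3 (2.43 ± 0.33), KCNA1 (2.03 ± 0.59), KCND2 (1.95 ± 0.29) and SCN2A (1.66 ± 0.16) were higher in them. Among the neuron, radial glia-like and dividing classes, KCNV1 and KCNA1 passed the filter on low counts only through excitatory classes. The calls of both are therefore no independent support. In a new clustering of cells with 500 or with 1000 genes or more, 9 and 4 calls were left, with splits of 5 and 4 and of 2 and 2. Over all names, 648 of 9117 and 454 of 9297 were then higher, and 1168 and 601 lower. KCND2 turned to -0.85 and -0.61 in these clusterings (edgeR adjusted p = 0.78 and 0.93). The granule or ZIC name, which counts among the excitatory classes, had then passed to 110 and 53 cells.

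**Figure D3:**
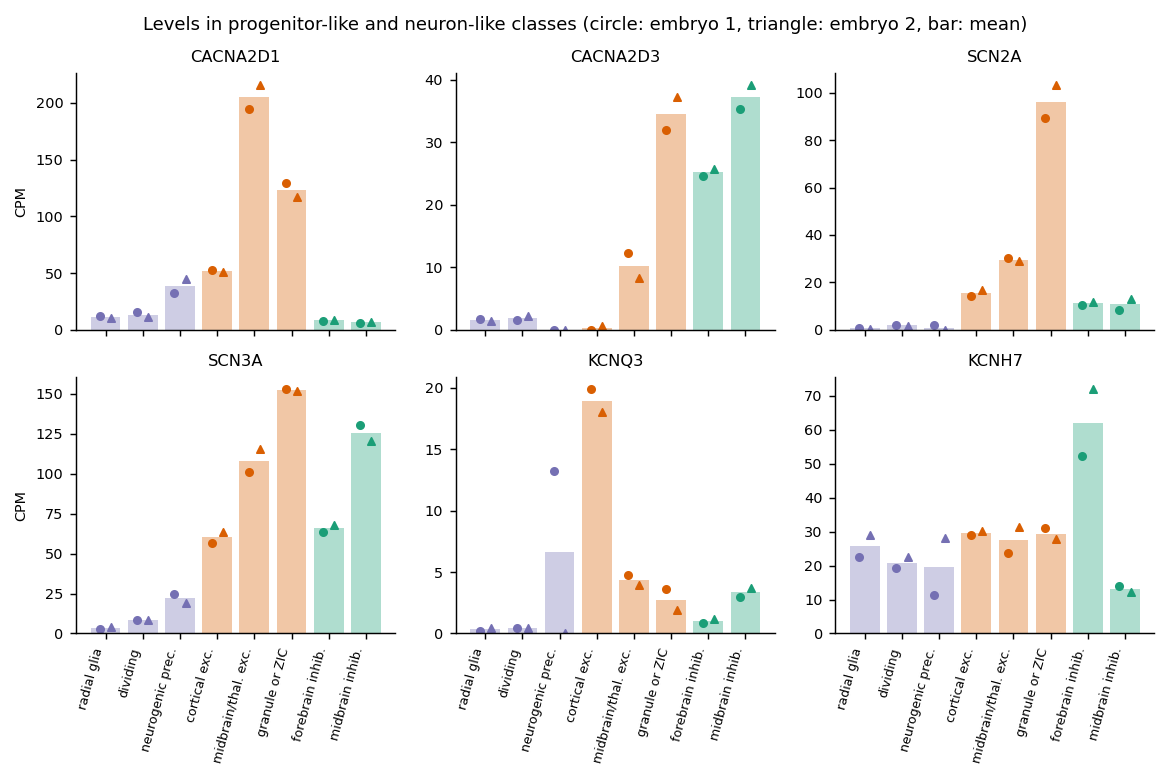
Levels in CPM of CACNA2D1, CACNA2D3, SCN2A, SCN3A, KCNQ3 and KCNH7 in 3 progenitor and 5 neuron classes, with embryo 1 as circles, embryo 2 as triangles and their mean as bars, each panel on its own axis from 0. CACNA2D1 is high in excitatory classes, CACNA2D3 in the neuron classes other than the cortical one, and KCNQ3 in cortical cells at 19.9 and 18.0 CPM.

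Each neuron class was then compared with the mean of the other 4. In cortical excitatory neuron-like cells 8 subunits were higher and 10 lower, where 10.8% and 11.2% of all names were called. KCNQ3 had 19.9 and 18.0 CPM there and 0.877 to 4.80 CPM in the other neuron classes (2.95 ± 0.34, edgeR adjusted p = 2.4e-11), with no overlap. Among the neuron, radial glia-like and dividing classes, KCNQ3 passed the filter on low counts only through the cortical class. Its calls are therefore no independent support. KCNA1, a low-threshold potassium channel, stood at 3.57 and 7.82 CPM (2.26 ± 0.55) and overlapped the granule or ZIC class (7.74 and 3.76 CPM). The limit from the filter, given above for KCNA1, holds for this call too. SCN1A (32.1 and 28.3 CPM, -0.76 ± 0.16) and SCN3A (56.6 and 63.7 CPM, -0.73 ± 0.12) were lower than the mean of the other classes, although both overlapped the forebrain inhibitory class.

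In midbrain or thalamus excitatory neuron-like cells 8 subunits were higher and 1 lower (8.5% and 4.54% of all names). With library totals as the scale the split was 6 and 2, where 561 of 9906 names were higher and 639 lower. Without the block for the embryo 5 calls were left, and over all names 668 of 1292. CACNA2D1 led (3.14 ± 0.10), followed by KCND2, which carries the transient A-type current, with 20.5 and 16.9 CPM (1.86 ± 0.23). SCN1A had its highest class level there, 73.7 and 82.2 CPM (0.91 ± 0.11), and KCNK12 was lower (2.18 and 1.47 CPM, -1.92 ± 0.45). The KCNK12 value turned to 0.70 in a new clustering of cells with 500 genes or more (edgeR adjusted p = 0.80). The clusters of the class differed, in values picked after they were seen and not tested: KCND2 had 27.8 and 25.9 CPM in cluster 4, led by POU4F1 and BARHL2, and 1.62 and 0 CPM in cluster 20, led by ROBO3 and NEUROD1. SCN2A had 32.9 and 28.2 CPM and 1.62 and 4.68 CPM in the same clusters, and CACNA2D1 231 and 250.1 CPM and 170.2 and 199 CPM. The third cluster, 21, led by EPHX4 and BEND4, had KCND2 at 26 and 4.48 CPM, so that the embryos differed, SCN2A at 74.6 and 62.7 CPM and CACNA2D1 at 84.4 and 104 CPM, the lowest of the 3 clusters.

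In granule or ZIC neuron-like cells 24 subunits were higher and 1 lower, where 17.1% and 9.9% of all names were called. SCN9A, best known from sensory neurons, stood at 29.9 and 55.5 CPM against 0 to 4.39 CPM in the other neuron classes (4.49 ± 0.29, edgeR adjusted p = 9.0e-23). Among the neuron, radial glia-like and dividing classes, it passed the filter on low counts only through this class. The SCN9A calls are therefore no independent support. SCN2A reached 89.3 and 103 CPM (2.46 ± 0.14), CACNA1E 24.3 and 22.6 CPM (2.17 ± 0.29) and KCNMA1 23.2 and 19.3 CPM (1.87 ± 0.28), each above every other neuron class in both embryos. SCN7A was called from 8 against 1 UMIs, and KCNN1, an SK channel, was lower (1.55 and 2.35 CPM, -1.41 ± 0.52). These calls belong to the cells of 1 cluster. Clustered anew with at least 500 or 1000 genes, the name passed to 110 and 53 cells. Then 1 subunit was called in each case, where 431 of 9117 and 405 of 9297 names were called. SCN9A was also counted in unnamed cluster 18, at 29.9 and 24.5 CPM.

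In forebrain inhibitory neuron-like cells 8 subunits were higher and 11 lower (9.55% and 9.72% of all names). On library totals the split was 10 and 8, where 1041 of 9906 names were higher and 790 lower. Without the block for the embryo 12 calls were left, and over all names 1065 of 1909. KCNH7 stood at 52.2 and 71.9 CPM (1.37 ± 0.13), KCNH8 at 51.8 and 58.8 CPM (0.77 ± 0.13) and the silent subunit KCNF1 at 5.70 and 6.96 CPM (2.54 ± 0.46), each the highest class level of its gene in both embryos. Among the neuron, radial glia-like and dividing classes, KCNF1 passed the filter on low counts only through this class. The KCNF1 call is therefore no independent support. KCNQ3 (0.877 and 1.16 CPM, -2.29 ± 0.55) and SCN2A (10.5 and 11.9 CPM, -1.26 ± 0.20) were lower. Within the class, and again picked after the values were seen, cluster 5, led by SST and NPAS1, had KCNIP4 at 13.2 and 6.71 CPM, against 0 and 0.728 CPM in cluster 6, led by ISL1 and SIX3. Cluster 6 in turn had KCNK12 at 16 and 40.8 CPM, against 3.61 and 3.36 CPM in cluster 5.

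In midbrain inhibitory neuron-like cells 9 subunits were higher and 17 lower (14.9% and 12.3% of all names). CACNA2D3 had 2.15 times the pooled level of the other neuron classes (1.82 to 2.52), although it overlapped the granule or ZIC class. That pooled level includes the nearly empty cortical class. KCNJ2 (3.40 and 2.07 CPM, 2.94 ± 0.73), the T-type subunit CACNA1G (6.80 and 5.38 CPM, 1.27 ± 0.40) and CACNA1E (12.7 and 10.8 CPM, 1.11 ± 0.30) were also higher. CACNA2D1 (-3.08 ± 0.19), KCNV1 (0.850 and 0.828 CPM, -2.89 ± 0.50), KCNJ3 (1.27 and 1.24 CPM, -2.46 ± 0.45) and KCNH7 (14 and 12.2 CPM, -1.46 ± 0.17) were lower, and KCNC2, a fast delayed rectifier, had 1 UMI. The clusters were not alike: KCNB2 had 102 and 144 CPM in cluster 0, led by RGS4 and OTX2, and 14.3 and 24.8 CPM in cluster 3, led by TFAP2A and GATA3, whereas CACNA2D3 had 9.41 and 18.4 CPM and 51.1 and 58.1 CPM.

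The progenitor classes differed in few subunits. Of those tested, 1 was higher in radial glia-like than in dividing cells and 3 were lower, where 9.1% and 10.5% of all names were called. Without the block for the embryo 2 calls were left, both lower, where 294 of 9906 names were higher and 581 lower. SCN3A (2.62 and 4.31 against 8.51 and 8.75 CPM, -1.25 ± 0.28), CACNG4 (12.9 and 9.53 against 26.3 and 24.1 CPM, -1.10 ± 0.19) and KCNH8 (2.62 and 2.95 against 3.72 and 7.62 CPM, -0.92 ± 0.34) were lower. Per cell, with both embryos summed, SCN3A was counted less often in radial glia-like than in erythroid-like cells, which are not excitable. Neurogenic precursor-like cells, marked by EOMES and NEUROG1, had KCNC2 at 24.6 and 30.1 CPM, from 13 and 14 UMIs, above every other class in each embryo. That gene was picked after its values were seen, and the class had no contrast of its own.

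The single clusters of radial glia-like and dividing cells, picked in the same way and not tested, differed more. KCNK10 had 65.6 and 51.7 CPM in radial glia-like cluster 10, led by HES5, and 52.0 and 39.2 and 55.5 and 54.7 CPM in dividing clusters 11 and 22, against 14.5 to 23.1 CPM in radial glia-like clusters 2 and 26 and dividing clusters 7, 13 and 15. The latter clusters overlapped the range of the neuron classes. KCNH7 had 7.03 to 13.9 CPM in clusters 10, 11, 13 and 22 and 21.9 to 38.9 CPM in clusters 2, 7, 15 and 26. CACNA2D1 had 1.94 to 5.34 CPM in clusters 10, 11 and 22 and 6.58 to 28.4 CPM in the other 5.

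**Figure D4:**
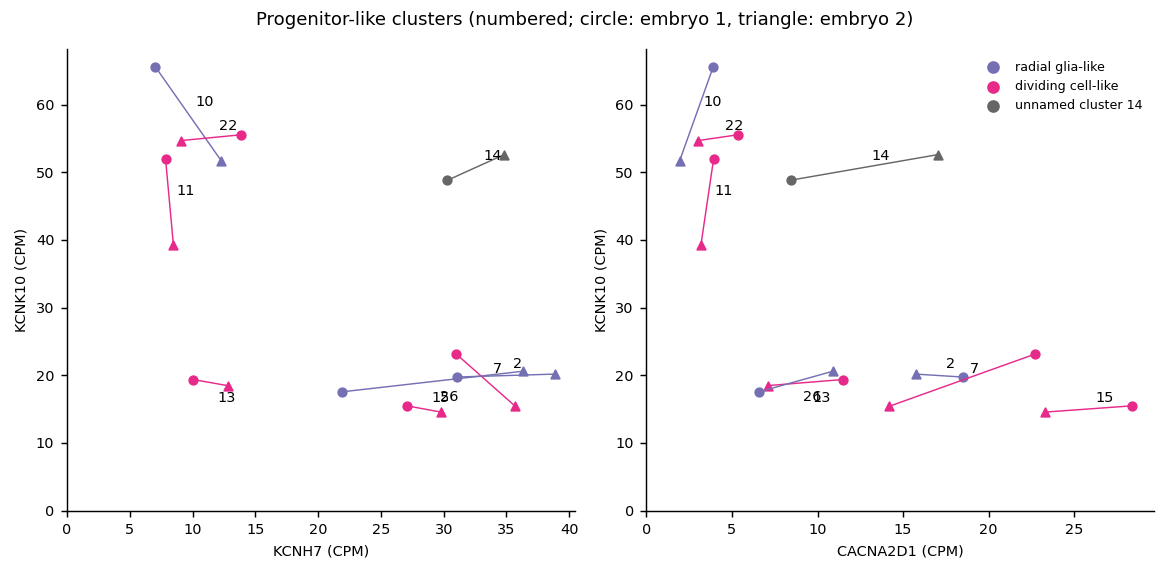
KCNK10 against KCNH7 (left) and against CACNA2D1 (right), in CPM, in the radial glia-like and dividing clusters and in unnamed cluster 14, with embryo 1 as circles and embryo 2 as triangles. Clusters 10, 11 and 22 combine high KCNK10 with KCNH7 of 7.03 to 13.9 CPM, and cluster 14 is high in both.

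Unnamed cluster 14 (518 cells) held 8 radial glia markers, but BCAN, VCAM1 and CLU were among its leading genes. KCNJ16, an inward rectifier known from astroglia, was counted there with 7 and 14 of its 24 UMIs, or 5.89 and 10.8 CPM, and had no UMI in any neuron class. The SK channels KCNN2 (16.8 and 10.1 CPM) and KCNN3 (12.6 and 10.8 CPM) lay above every neuron class in each embryo, where the highest were 9.29 and 6.59 CPM and 6.19 and 7.53 CPM. The cluster entered no test.

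The classes outside the neural lineages were each compared with the mean of the neuron and progenitor classes, and 1 to 3 subunits were higher in each. KCNJ8, KCNJ2, SCN7A, KCNK1 and KCNQ1 had low levels in the neuron, radial glia-like and dividing classes. They passed the filter on low counts through the non-neuronal classes where they were high, so their calls there are no independent support. In endothelial-like cells 2 subunits were higher and 10 lower, where 15.9% and 16.7% of all names were called. KCNJ8, the pore of the vascular ATP-sensitive potassium channel, had 53 and 62 UMIs, or 232 and 218 CPM, against 14 UMIs in all neuron and progenitor classes. Its pooled ratio was 824 (exact 95% interval 471 to 1554, counting error only; edgeR adjusted p = 2.0e-34). KCNJ2, a strong inward rectifier of vessel walls, had 52.6 and 42.2 CPM from 12 and 12 UMIs (ratio 48.1, 28.3 to 79.8). KCNB2 had no UMI and was at least 9.70-fold lower by the limit of 3 counts over the class. Blood vessels had been removed before dissociation, and haemoglobin made up 5.25% and 6.34% of the UMIs of this class.

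The endothelial-like cluster also carried mural cell genes, and ABCC9 and RGS5 were among its leading genes. All 8 mural markers in the annotation were counted in it, at a summed 895 and 622 CPM, against at most 58.7 CPM in any other class. ABCC9, the regulatory subunit that pairs with KCNJ8, stood at 632 and 369 CPM beside the endothelial marker PECAM1 at 382 and 376 CPM. In a split chosen after the values were seen, the 21 cells with more mural than endothelial marker UMIs had KCNJ8 at 669 CPM (exact 95% interval 476 to 914) and no KCNJ2 UMI. The 50 cells with more endothelial marker UMIs had KCNJ8 at 169 CPM (133 to 212) and all 24 KCNJ2 UMIs, at 54.8 CPM (35.1 to 81.5). Both intervals cover counting error only, and cells are not replicates. ABCC9 is itself a mural marker of this split, with 130 of the 185 mural marker UMIs in the 21 cells and 119 of 196 in the 50. The mural side therefore rests largely on the partner gene of KCNJ8.

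In meningeal fibroblast-like cells 3 subunits were higher and 10 lower (17.5% and 17.0% of all names). KCNK2, a mechanically sensitive TREK leak channel, had 73.2 and 51.8 CPM from 25 and 15 UMIs, against 2.55 to 8.47 CPM in neurons and progenitors (ratio 13.9, 9.65 to 19.4). SCN7A had 20.5 and 38.0 CPM from 7 and 11 UMIs (ratio 47.3, 24.9 to 87.2), its highest class level in both embryos. KCNIP4 was called from 6 and 1 UMIs (ratio 9.19, 3.55 to 20.1). KCNH7 had no UMI and was at least 5.80-fold lower.

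Choroid plexus-like cells had 1 subunit higher and 6 lower (12.4% and 11.5% of all names). With DESeq2 the split was 1 and 1, where 1722 of 9906 names were higher and 513 lower. With the RLE scale it was 1 and 3, given without a share over all names. KCNK1, a tandem-pore channel known from secretory epithelia, had 43.1 and 51.6 CPM from 10 and 12 UMIs, against 0 to 2.58 CPM in neurons and progenitors (ratio 65.7, 36.9 to 114). Microglia-like cells had 2 higher and 9 lower (14% and 16.5% of all names). With DESeq2 the split was 4 and 3, where 1821 of 9906 names were higher and 721 lower. With the RLE scale it was 3 and 7, again without a share over all names. KCNQ1, whose counts all came from 1 of its 5 gene models, had 32.8 and 58.7 CPM there from 8 and 17 UMIs (ratio 66.9, 38.5 to 115), and KCNJ2 16.4 and 10.4 CPM from 4 and 3 UMIs (ratio 13.5, 5.16 to 29.9). Unnamed cluster 12, led by TESC and DLL3, also held KCNQ1, at 12.1 and 9.74 CPM from 10 and 10 UMIs.

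**Figure D5:**
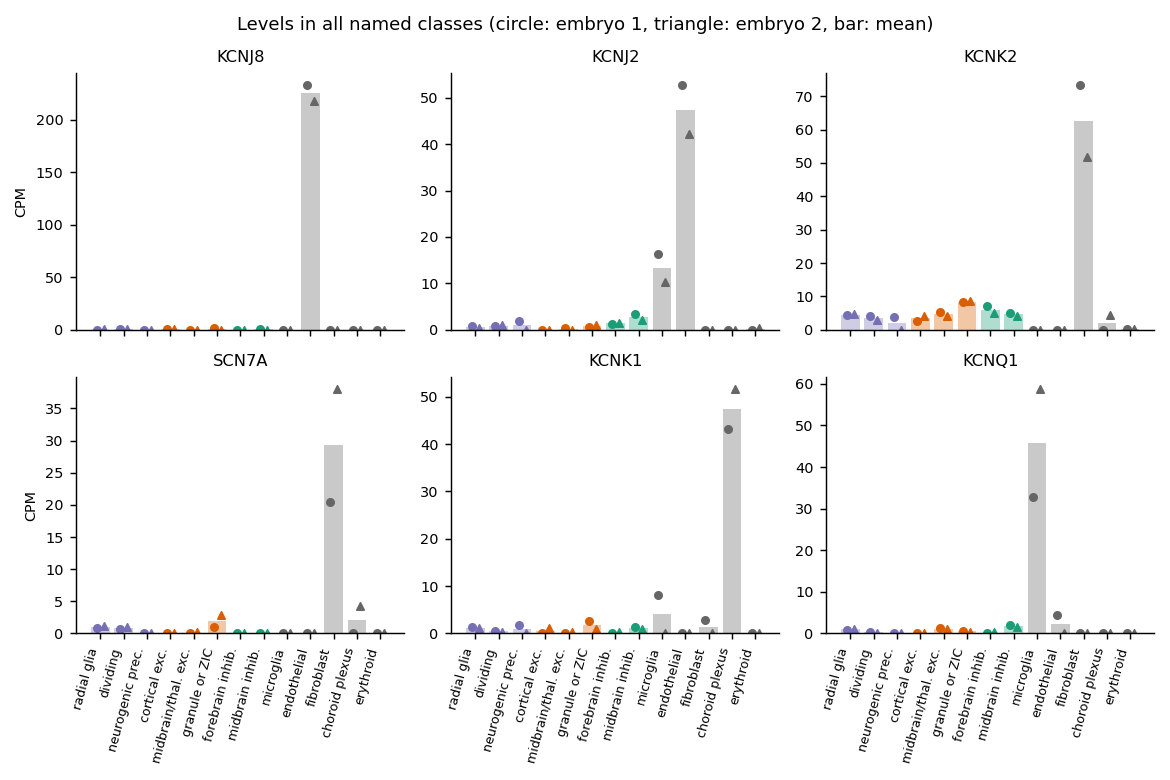
Levels in CPM of KCNJ8, KCNJ2, KCNK2, SCN7A, KCNK1 and KCNQ1 in the 13 named classes, with embryo 1 as circles, embryo 2 as triangles and their mean as bars, each panel on its own axis from 0. Each gene is highest in the same non-neuronal class in both embryos, KCNJ8 at 232 and 218 CPM in endothelial-like cells.

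In the 1415 erythroid-like cells, KCNJ8, KCNK1, SCN7A and KCNQ1 had no UMI, which allows up to 0.226 CPM, KCNJ2 had 1 UMI and KCNK2 had 2, whereas SCN3A had 52 and KCNB2 50. That limit is on the CPM scale that haemoglobin lowers in this class, as given above. Over the 13 named classes, 39 of the 76 subunits had the same class highest in both embryos. Of these, 18 were highest in granule or ZIC neuron-like cells, 4 in midbrain inhibitory, 3 each in midbrain or thalamus excitatory and forebrain inhibitory, and 2 in cortical excitatory neuron-like cells. A further 2 were highest in endothelial-like cells, 2 in meningeal fibroblast-like cells and 1 each in 5 other classes. Some rest on few UMIs, as KCNJ16 in dividing cells (1 and 2 UMIs) and KCND1 in midbrain inhibitory neuron-like cells (3 and 4 UMIs). No share over all names stands beside these counts, so they describe these subunits and are no result about channels as a group. They also rank CPM, without the scaling factors of the tests. Those factors were 1.40 and 1.41 in the granule or ZIC class and 1.16 to 1.31 in the other neuron classes. On library totals, 2621 of 9906 names were higher in the granule or ZIC class than in the other neuron classes, and 428 were lower. Counts come from transcript ends and depend on how completely each gene model covers its own, so levels were compared between classes for 1 gene and not between genes.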

How the data were processed

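Single-cell libraries of 2 embryonic tree shrew brains (10x Chromium 3′ v3) were deposited by the authors as matrices of UMI counts, with gene models in rows and cells in columns, made with fastp and Cell Ranger 3.1.0 on the TS_2.0 assembly, with 9241 and 9685 barcodes. The members and all lists were chosen with earlier results of these data known. Counts of gene models with the same name were summed. Cells with at least 200 genes were kept (38192755 and 35785697 UMIs), and doublets were not removed, since Scrublet by its own threshold called 1 cell in each library. Clustering (scanpy 1.11.5, leidenalg 0.10.2) used 2000 variable genes without the channel names, 20 principal components, 20 neighbours and a resolution of 2.0. A cluster was named from at least 3 listed markers, each in at least 10% of its cells and 2-fold above all other cells.

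Counts were summed per class and embryo, which gave 26 libraries of 13 classes, and tested with the quasi-likelihood test of edgeR 4.0.16 (R 4.3.3) with TMM scaling, the default filter on low counts and the embryo as a block, since the classes of 1 embryo come from the same animal. P-values were adjusted over 9906 names by Benjamini-Hochberg, and with 2 embryos they rest on a small number of animals. A cluster's calls compare classes that were defined on the same cells. Named were called subunits with the same direction in both embryos, up to 12 in each direction by fold change, and a fixed list of members. Intervals are exact 95% Poisson or conditional binomial intervals (scipy 1.17.1), and 0 UMIs were read against a limit of 3 counts. The test was checked on simulated counts. Alternatives were other scaling, DESeq2 1.42.0, no filter, no block, separate gene models, other cell minimums, resolutions and component numbers, and cells or classes left out. Some subunits and partner genes were tested and counted but are not reported by name here. No sequences or coordinates are shown.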

Additional observations from a re-analysis of the deposited data

How the results depend on the processing

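Each of 189 calls on the single subunits reported by name was recomputed under the alternatives that could be run. Of 3349 values 2989 kept their direction and their side of the threshold, 320 kept their direction but passed it no longer, and 40 turned their direction. The 2989 include 189 values without embryo 1 and 189 without embryo 2, which have no test and could not turn. Those 40 arose only where clustering was repeated, 19 with cells of at least 500 genes, 16 with at least 1000 genes and 5 at a resolution of 0.5, and none arose with RLE or library-total scaling, DESeq2, no filter on low counts, no replicate block, gene models kept apart, 30 principal components, a resolution of 1.0, the highest Scrublet scores or haemoglobin-rich cells left out, or the erythroid-like class left out. At a resolution of 0.5 or 1.0 and without the highest Scrublet scores no granule or ZIC class was formed, so its contrast gave no value there and the contrasts over neuron classes ran without it. In log2 values, the turned values in granule or ZIC neuron-like cells were CACNA1E -6.72, CACNB3 -0.67, CACNG2 -0.68, CACNG4 -0.30, KCNB2 -0.18, KCNC2 -3.86, KCND2 -6.55, KCNJ3 -0.35, KCNV1 -1.14, SCN2A -0.96, SCN7A -1.54 and SCN9A -5.49 with at least 500 genes, and CACNA1E -0.38, CACNB3 -1.35, CACNB4 -6.24, CACNG4 -0.56, KCNB2 -0.23, KCNC2 -3.94, KCND2 -6.35, KCNV1 -5.53, SCN2A -1.16 and SCN7A -0.55 with at least 1000 genes. Between excitatory and inhibitory classes these were CACNG2 -0.0184, KCND2 -0.85 and KCNQ3 -0.0408 with at least 500 genes, CACNB3 -0.10 and KCND2 -0.61 with at least 1000 genes, and CACNG2 -0.15 with resolution 0.5. In forebrain inhibitory cells these were KCND2 0.65 with at least 500 genes, KCND2 0.25 and KCNV1 0.29 with at least 1000 genes, and CACNG2 0.11, KCNB2 0.36 and KCNK12 -0.18 with resolution 0.5. In midbrain inhibitory cells these were KCND2 0.62 and KCNK12 0.19 with at least 500 genes, and KCND2 0.66 with at least 1000 genes. In cortical cells these were CACNB4 0.75 with at least 1000 genes. In midbrain or thalamus cells these were KCNK12 0.70 with at least 500 genes. Between radial glia-like and dividing cells these were KCNH8 0.42 with resolution 0.5. Of all the turned values the lowest edgeR adjusted p was 0.052, for KCNB2 in forebrain inhibitory cells. With the classes kept as named and their cells limited to at least 500 or 1000 genes, which was added after the data had been seen, none of the values obtained turned.

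Leaving out embryo 1 or embryo 2 turned 0 of the 189 directions. That outcome was fixed in advance, since the named calls have the same direction in both embryos, and it is no check of them. The values without 1 embryo have no test, since 1 embryo leaves no spread between animals. The libraries of a class pair are from the same animal, so the embryo stands as a block. With no replicate block the number of subunits called went from 9 to 5 in midbrain or thalamus, from 19 to 12 in forebrain inhibitory cells and from 4 to 2 between radial glia-like and dividing cells, and moved no other number of calls by over 1.5 times. Over all 9906 names, the calls in these comparisons also fell, from 1292 to 668, from 1909 to 1065 and from 1941 to 875. Clustered anew with at least 500 genes the number of subunits called was 26 for neurons against progenitors, 9 for excitatory against inhibitory, 15 in midbrain or thalamus, 1 in granule or ZIC and 11 in forebrain inhibitory cells. In the same order, 5666, 1816, 1389, 431 and 1399 of all 9117 names were called. With at least 1000 genes the subunits called were 24, 4, 9 in cortical, 1 in granule or ZIC, 11 in forebrain and 12 in midbrain inhibitory cells. Of all 9297 names, 5160, 1055, 1630, 405, 1020 and 1425 were called there. In choroid plexus-like cells the number of subunits called was 4 with RLE scaling, 2 with DESeq2, 4 without the highest Scrublet scores and 4 for the same cells with at least 500 genes, and in microglia-like cells 7 with DESeq2. With DESeq2, 2235 and 2542 of all 9906 names were called in these 2 classes. Without the highest Scrublet scores, 2199 of 9502 names were called in choroid plexus-like cells. The counts with RLE scaling and for the same cells with at least 500 genes stand without a share over all names. The cause of these shifts was not tested. The choroid plexus-like and endothelial-like contrasts gave no value at 1000 genes, where those classes were not formed or, with the classes kept as named, fell under 20 cells in an embryo. The 87 to 163 cells of the vascular, meningeal, choroid and microglial classes limit what could be detected in them. The 25 subunits that did not pass the filter were not tested.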
